A study of Mus musculus with 4 samples.

Results

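Expression of 7 genes encoding S100 calcium-binding proteins was examined in myeloid cells of the normal and the infarcted mouse heart. The genes were S100a1, S100a4, S100a6, S100a8, S100a9, S100a10 and S100a11. They were taken by name from the list of 31053 genes that all 4 libraries share, and each name matched 1 entry. Cells came from hearts of CSF1R-EGFP+ mice aged 12 to 16 weeks, in which the Csf1r promoter drives EGFP, and were sorted as EGFP+ and Ly6G- before droplet-based 3′ single-cell RNA sequencing. The baseline group was 1 library of 3 pooled hearts without surgery. After infarction there were 3 libraries, each from a different heart collected 7 days after ligation of the left coronary artery, and remote myocardium was cut away before digestion. Every group carried the reporter and none had sham surgery, so effects of the thoracotomy and of the occlusion cannot be told apart. The Ly6G- gate was meant to remove neutrophils, and the reporter is active in monocytes, macrophages, dendritic cells and part of the granulocytes.

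S100 proteins are small proteins with a pair of EF-hand loops that mostly act as dimers and change shape when calcium binds. S100a8 and S100a9 form calprotectin, an abundant cytosolic complex of neutrophils and monocytes that is released at sites of injury and can signal through Tlr4 and Ager. S100a4 binds the heavy chain of non-muscle myosin, S100a6 binds Cacybp, S100a10 pairs with Anxa2 at the membrane and S100a11 binds Anxa1, whereas S100a1 is best known from heart muscle, where it tunes calcium cycling.

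All 7 genes are protein-coding and lie on mouse chromosome 3 (GRCm38, GENCODE M21). S100a1 occupies chr3:90511034-90514392 (minus strand), S100a4 chr3:90603771-90606045 (plus), S100a6 chr3:90612882-90624181 (plus), S100a8 chr3:90668978-90670035 (plus) and S100a9 chr3:90692632-90695721 (minus). S100a11 at chr3:93520488-93526287 and S100a10 at chr3:93555080-93564643, both on the plus strand, form a separate group that starts 2824766 bases beyond S100a9. S100a8 and S100a9 are neighbors, 22596 bases apart. The model Gm42674 overlaps S100a4 on the same strand, so the split of reads between these genes in the authors' counting is uncertain.

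Sequence upstream of S100a8, S100a9 and S100a11 is shown because these were the members with their highest infarct mean in granulocyte-like cells. At baseline S100a6 was highest in these cells too, and its upstream window, not printed, held neither of the motifs marked here. The stretches run 5′ to 3′ on the strand of the gene and come from RefSeq (GRCm38.p6), from 250 bases before the start up to the start or to the nearest GENCODE exon. Capitals in S100a8 and S100a9 mark matches to TTNNGNAA, a loose C/EBP-type motif, and capitals in S100a11 mark matches to the AP-1 motif TGANTCA, searched on both strands.
S100a8, chr3:90668821-90668977, plus strand: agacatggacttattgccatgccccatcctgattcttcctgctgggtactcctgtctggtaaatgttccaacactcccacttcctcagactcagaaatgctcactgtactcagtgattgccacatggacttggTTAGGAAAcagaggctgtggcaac
S100a9, chr3:90695722-90695971, minus strand: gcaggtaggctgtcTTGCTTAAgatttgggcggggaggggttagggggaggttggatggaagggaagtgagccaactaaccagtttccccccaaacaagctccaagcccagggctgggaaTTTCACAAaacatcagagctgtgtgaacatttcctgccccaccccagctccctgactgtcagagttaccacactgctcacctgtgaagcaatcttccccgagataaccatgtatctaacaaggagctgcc
S100a11, chr3:93520246-93520487, plus strand: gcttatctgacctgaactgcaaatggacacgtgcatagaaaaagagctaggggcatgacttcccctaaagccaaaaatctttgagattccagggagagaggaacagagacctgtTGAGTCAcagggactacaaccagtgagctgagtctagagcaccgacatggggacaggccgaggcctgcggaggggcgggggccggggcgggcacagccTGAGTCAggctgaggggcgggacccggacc
The C/EBP-type match of S100a8 began 117 bases before the RefSeq start, and those of S100a9 began 236 and 130 bases before it. The AP-1 matches of S100a11 began 136 and 38 bases before the start. Of 32851 mouse promoters of the same length, 36.8% held the C/EBP-type letters and 6.75% the AP-1 letters. No 2 matches overlapped. A TATAAA, found in 12.4% of promoters, lay 30 bases before the RefSeq start of S100a8 within a stretch that GENCODE counts as exon, and another lay 31 bases before that of S100a4. Upstream sequence was matched for 6 of the 7 members, all but S100a10.

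After the study's filter of 500 to 40000 UMIs and over 200 genes, the libraries held 10117 to 10782 cells, 41533 in all, with a median of 6399 UMIs per cell at baseline and of 8470 to 8557 in the infarct libraries. A Csf1r UMI was found in 89.7 to 93.9% of cells and a Ptprc UMI in 93.0 to 96.1%, whereas Ly6g had 0 to 3 UMIs per library. Pairs of libraries shared 26 to 34 cell barcodes, 0.256 to 0.330% of the smaller library. Cells were placed in 14 classes by the number of marker genes detected, using lists that hold no S100 gene, and 22.4% of cells stayed outside every class. Levels are CPM, computed on UMIs without mitochondrial genes summed over the cells of a class in a library, and were given only for classes with at least 20 cells in that library. Type 1 dendritic-like cells never reached 20 cells in a library, and B-cell-like cells did so in 3 libraries and endothelial-like cells at baseline only. A fall in the level of a sum cannot be told apart from a change in the make-up of the cells summed.

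The first question was in which cells each gene was expressed. The plot of levels by class and library shows this for all members, and each is described by its known role. Within the infarct libraries, each class was compared with all other cells of the same heart. Log2 fold changes come from edgeR's quasi-likelihood test with the heart as a block, Benjamini-Hochberg adjusted over all genes tested and called at an adjusted p under 0.01. Values after ± are then standard errors from this fit (n = 3 hearts), the absolute log2 fold change over the square root of F. The test draws each gene's variance toward that of all genes tested. Neither the ± values nor the p-values thus measure the spread of these hearts alone.

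**Figure D1:**
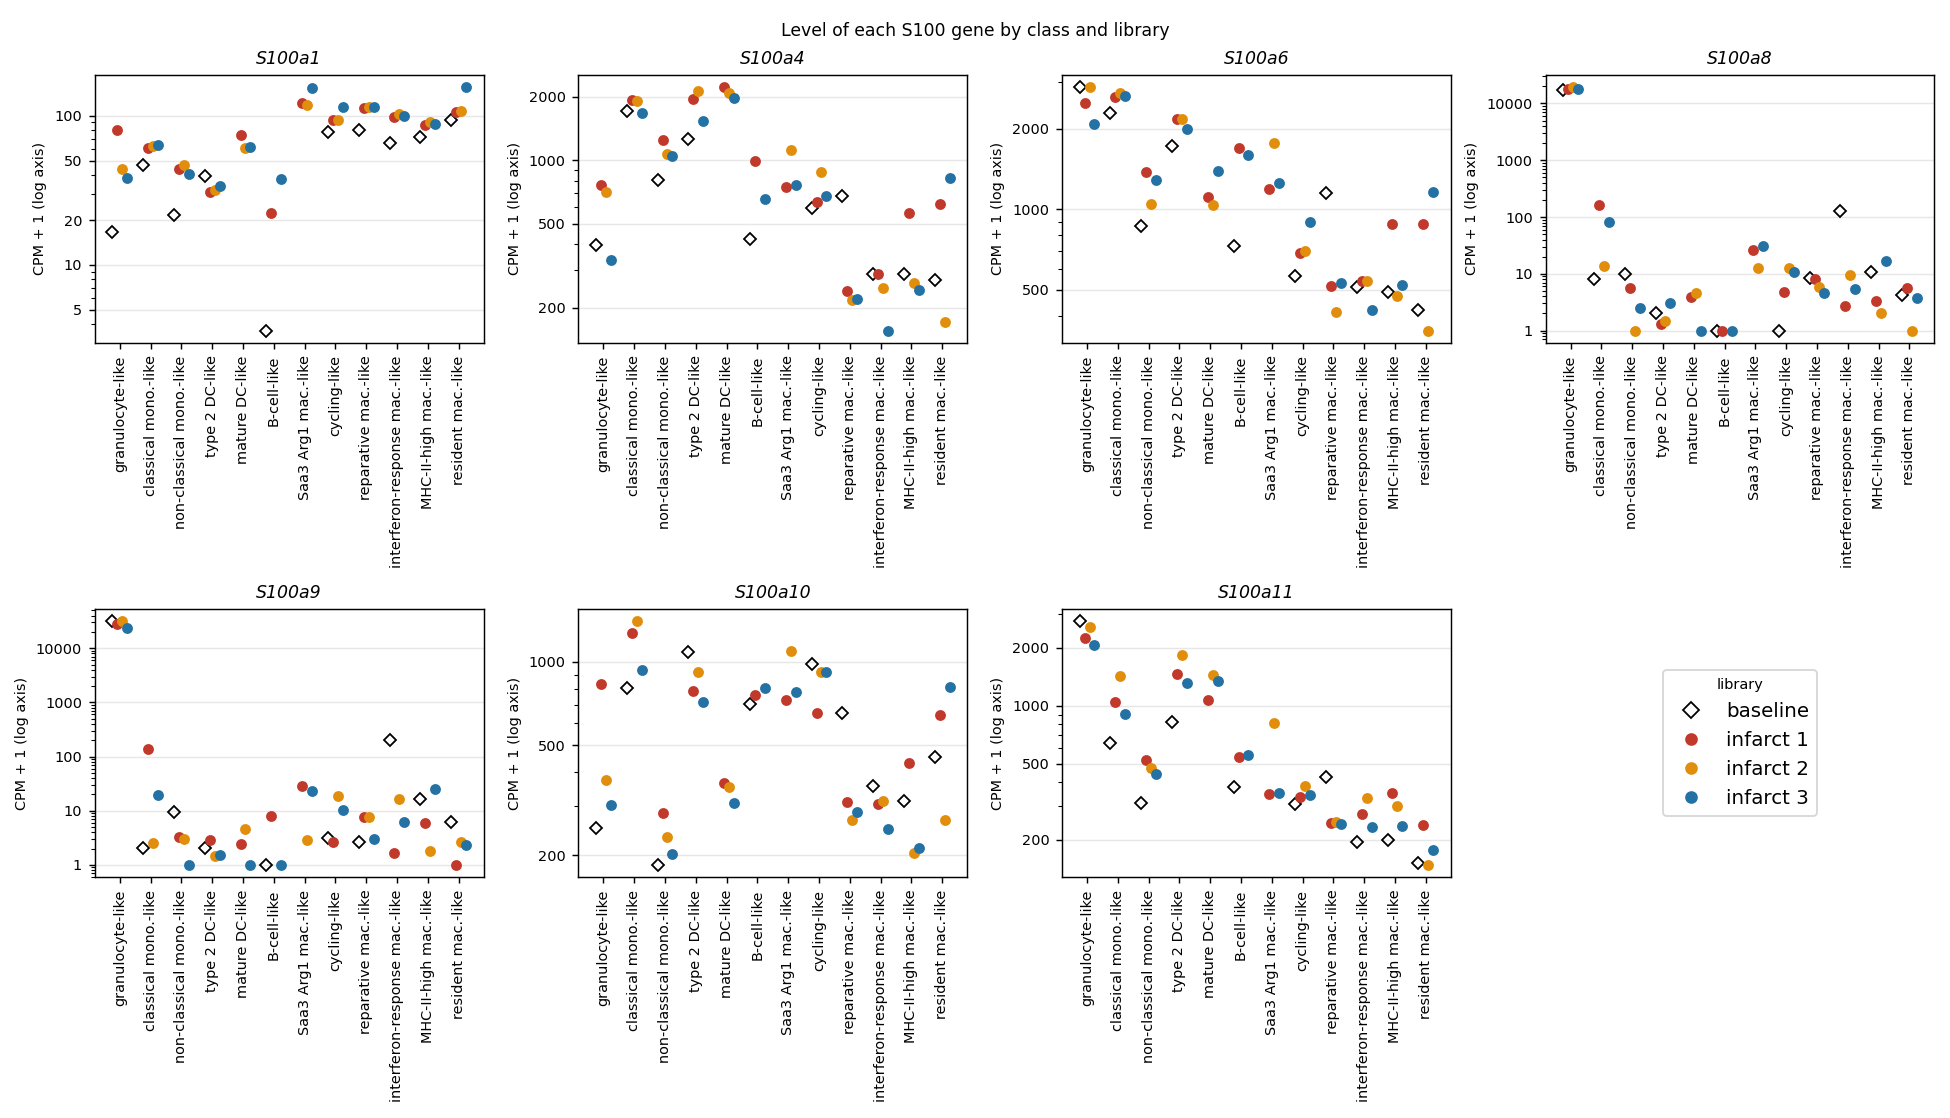
Level of each S100 gene in 12 classes, as CPM + 1 on a log axis, with 1 point per library of at least 20 cells (open diamond: baseline; filled circles: infarct 1, 2 and 3). S100a8 and S100a9 lie near 17386 CPM and above in granulocyte-like cells and far lower in every other class drawn, S100a4 and S100a6 are high in monocyte-like and dendritic-like cells, and S100a1 is higher in macrophage-like classes than in type 2 dendritic-like cells.

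S100a8 and S100a9, the chains of calprotectin, were concentrated in a small set of granulocyte-like cells. These made up 0.654% of cells at baseline (67 cells) and 0.616, 0.427 and 0.722% in infarct 1, 2 and 3 (64, 46 and 73 cells). S100a8 reached 17386 CPM in the baseline library and 18264, 19739 and 17705 CPM in infarct 1, 2 and 3. S100a9 reached 31791 CPM in the baseline library and 28021, 31290.4 and 23952 CPM in infarct 1, 2 and 3. The infarct means were 18569 ± 1051 CPM for S100a8 and 27755 ± 3677 CPM for S100a9 (SD, n = 3). Granulocyte-like cells held 82.3% of the S100a8 UMIs of the baseline library and 70.8, 68.8 and 72.1% in infarct 1, 2 and 3. For S100a9 they held 85.8, 78.7, 73.2 and 76.3% in the same order. These shares depend on where the gate is set. With 1 more marker required, the infarct means fell from 70.5 to 48.6% for S100a8 and from 76.0 to 53.8% for S100a9.

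The pair was carried by few cells. Cells with at least 10 UMIs of the pair numbered 75 at baseline and 248 in the infarct libraries, and they held 96.3 to 97.5% of the pair's UMIs in each library. Of the 248 infarct cells, 152 (61.3%) were granulocyte-like and 61 fell outside every class. Among the 64 such cells without a class in all libraries, 51 carried 2 to 4 of the 14 granulocyte markers, against the 5 required, and 8 carried 5 or more without meeting the whole gate. Their median depth was 2438 UMIs. Granulocyte-like cells were also shallow, with a median of 2119 UMIs at baseline and of 2464 to 3088 in the infarct libraries. Of the 250 granulocyte-like cells, 59 carried exactly 5 markers, and 345 other cells were 1 marker short.

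Outside granulocyte-like cells, levels were low and uneven between hearts. In classical monocyte-like cells S100a8 measured 6.97 CPM in the baseline library and 162, 12.9 and 81.4 CPM in infarct 1, 2 and 3. S100a9 in the same cells measured 1.08 CPM in the baseline library and 136, 1.54 and 18.3 CPM in infarct 1, 2 and 3. The infarct 1 value rested on 9 of 828 cells, which held 97.5% of the pair's UMIs in that class and had a median depth of 15376 UMIs. B-cell-like cells had no S100a8 UMI in any library. After thinning each cell to 2000 UMIs, S100a8 was found in 0 of 83 B-cell-like cells at baseline, which allows a share of up to 3.61%, and in 4.23% of endothelial-like cells (95% exact interval 0.88 to 11.9%, 3 of 71 cells). The share was 89.5, 86.0, 75.0 and 91.2% in granulocyte-like cells at baseline and in infarct 1, 2 and 3. In classical monocyte-like cells it was 1.01, 2.21, 1.63 and 1.71%. Saa3 Arg1 macrophage-like cells showed 2.97, 4.21 and 4.56% in the infarct libraries, with a mean of 3.91%. The infarct means were 0.57% in reparative and 0.42% in MHC-II-high macrophage-like cells. The endothelial-like share rests on 3 of 71 cells of the baseline library, and its interval is wide. It therefore cannot decide whether the shares in these other classes lie above background. Thinning left out 29 of 67 granulocyte-like cells at baseline and 21 of 64, 6 of 46 and 5 of 73 in infarct 1, 2 and 3, and 4 to 15 classical monocyte-like cells per library. Intervals and floors throughout cover counting error only.

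The make-up of the pair differed between classes. In granulocyte-like cells S100a8 contributed 35.4% of the pair's UMIs at baseline and 39.5, 38.7 and 42.5% in infarct 1, 2 and 3, so S100a9 UMIs outnumbered S100a8 UMIs in every library. In cells with fewer than 10 UMIs of the pair the order was the opposite for several classes. There S100a8 made up 86.5, 81.1, 82.5 and 71.0% in classical monocyte-like cells. In Saa3 Arg1 macrophage-like cells it made up 84.4, 85.7 and 91.0% in the infarct libraries, from 295 S100a8 and 42 S100a9 UMIs in all. In reparative macrophage-like cells it was 82.4% at baseline and 68.1, 68.1 and 68.0% after infarction. MHC-II-high macrophage-like cells lay between, at 42.3, 48.9, 56.0 and 58.3%, and the baseline value overlapped the granulocyte-like range. Interferon-response macrophage-like cells ranged from 23.5% in infarct 2 to 72.7% in infarct 1, on both sides of the granulocyte-like values. The 31 infarct granulocyte-like cells with fewer than 10 UMIs of the pair had 48.8% (exact interval 32.9 to 64.9%). Whether low cells express S100a8 themselves was not tested.

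**Figure D2:**
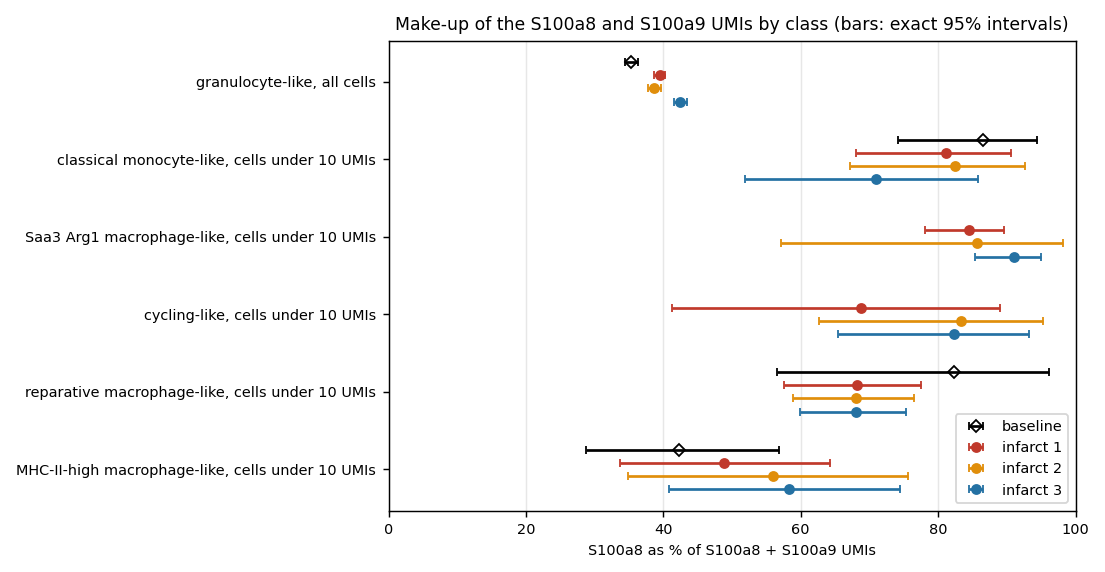
S100a8 as a percentage of all S100a8 and S100a9 UMIs, by class and library, with exact 95% intervals. All granulocyte-like cells lie between 35.4 and 42.5%, and cells with fewer than 10 UMIs of the pair in classical monocyte-like, Saa3 Arg1 and reparative macrophage-like classes lie between 68.0 and 91.0%.

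S100a4, which binds non-muscle myosin, was highest in dendritic-like and classical monocyte-like cells. Mature dendritic-like cells held 2232, 2080.4 and 1962 CPM in infarct 1, 2 and 3, with too few cells at baseline. Type 2 dendritic-like cells held 1259 CPM in the baseline library and 1959, 2132 and 1529 CPM in infarct 1, 2 and 3. Classical monocyte-like cells held 1706 CPM in the baseline library and 1926, 1910.2 and 1682 CPM in infarct 1, 2 and 3. The infarct ranges of these 3 classes overlapped, and all lay above non-classical monocyte-like cells (804 CPM at baseline and 1241, 1070.5 and 1043 CPM in the infarct libraries). By the gate, reparative macrophage-like cells had the lowest infarct mean, with 678 CPM in the baseline library and 238, 216 and 219.6 CPM in infarct 1, 2 and 3, and their range overlapped that of interferon-response macrophage-like cells. With classes from clustering they held 409, 611 and 433 CPM, above MHC-II-high macrophage-like cells (168, 138 and 155 CPM). The log2 fold change against all other infarct cells was 2.11 ± 0.08 (adjusted p = 4.38e-06) in classical monocyte-like cells, 1.98 ± 0.08 (adjusted p = 9.08e-10) in type 2 dendritic-like cells and 2.04 ± 0.15 (adjusted p = 3.94e-11) in mature dendritic-like cells. It was -1.55 ± 0.09 (adjusted p = 3.82e-05) in reparative macrophage-like cells. Fibroblast marker genes summed to 6759 CPM in the mature dendritic-like cells of infarct 1 and to 53.0 and 150.3 CPM in those of infarct 2 and 3, and their part in the S100a4 level was not tested. Without infarct 1 the call was kept. After thinning to 2000 UMIs, S100a4 was found in 87.7, 79.5 and 71.4% of mature dendritic-like cells in infarct 1, 2 and 3. It was found in 18.1% of B-cell-like and 16.9% of endothelial-like cells at baseline. In B-cell-like cells the share was 55.0% in infarct 1 (11 of 20 cells) and 39.4% in infarct 3 (13 of 33 cells). Whether B-cell-like and endothelial-like cells express S100a4 themselves was not tested, so these shares do not set a background for it.

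S100a6, or calcyclin, followed a similar course but was also high in granulocyte-like cells. Classical monocyte-like cells held 2285 CPM in the baseline library and 2641, 2726 and 2668 CPM in infarct 1, 2 and 3. Granulocyte-like cells held 2878 CPM in the baseline library and 2507, 2872 and 2086 CPM in infarct 1, 2 and 3. Type 2 dendritic-like cells followed with 1727 CPM in the baseline library and 2188, 2182 and 2001 CPM in infarct 1, 2 and 3. The classical monocyte-like and granulocyte-like infarct ranges overlapped, as did the granulocyte-like and type 2 dendritic-like ranges, and no other class reached the type 2 dendritic-like range. The granulocyte-like level depended on how the class was drawn. With classes from clustering it was 2666 CPM at baseline and 1194, 2416 and 1445 CPM in infarct 1, 2 and 3. In infarct 1 and 3 this lay below type 2 dendritic-like cells from clustering (1923 and 1836 CPM). Reparative macrophage-like cells held 1147 CPM in the baseline library and 517, 412 and 529 CPM in infarct 1, 2 and 3. The log2 fold change was 1.97 ± 0.10 (adjusted p = 1.09e-05) in classical monocyte-like cells, 1.47 ± 0.08 (adjusted p = 1.13e-08) in type 2 dendritic-like cells and 1.43 ± 0.16 (adjusted p = 6.44e-17) in granulocyte-like cells. In reparative macrophage-like cells it was -0.99 ± 0.08 (adjusted p = 0.000108). Thinned shares in classical monocyte-like cells were 95.7% at baseline and 96.4, 95.3 and 96.9% in infarct 1, 2 and 3, against 21.7% in B-cell-like and 25.4% in endothelial-like cells at baseline and 65.0 and 51.5% in B-cell-like cells of infarct 1 and 3.

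S100a10, the partner of Anxa2, had its highest infarct mean in classical monocyte-like cells. Classical monocyte-like cells held 803 CPM in the baseline library and 1272, 1405 and 933 CPM in infarct 1, 2 and 3. Type 2 dendritic-like cells held 1087 CPM in the baseline library and 785, 922 and 713 CPM in infarct 1, 2 and 3, and cycling-like cells 979 CPM at baseline and 650.4, 918 and 916 CPM in the infarct libraries. Non-classical monocyte-like cells were low, with 183 CPM in the baseline library and 283, 232 and 201 CPM in infarct 1, 2 and 3. In the gated infarct sums every class overlapped its neighbor in the order of means from classical monocyte-like down to non-classical monocyte-like cells. Granulocyte-like cells held 302 to 829 CPM by the gate, but 55.3, 52.7 and 121 CPM in infarct 1, 2 and 3 with classes from clustering. The log2 fold change was 1.61 ± 0.11 (adjusted p = 3.72e-05) in classical monocyte-like cells, 0.96 ± 0.11 (adjusted p = 1.18e-06) in Saa3 Arg1 macrophage-like cells and -0.99 ± 0.11 (adjusted p = 3.62e-17) in non-classical monocyte-like cells. Classical and non-classical monocyte-like cells thus lay on opposite sides of the other infarct cells in S100a10, and they were not compared with each other.

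S100a11, which binds Anxa1, had its highest level in granulocyte-like cells, whose infarct range lay above that of every other class. These cells held 2763 CPM in the baseline library and 2243, 2573 and 2082 CPM in infarct 1, 2 and 3. Type 2 dendritic-like cells held 820.2 CPM in the baseline library and 1458, 1842 and 1305 CPM in infarct 1, 2 and 3, mature dendritic-like cells 1065, 1448 and 1353 CPM in infarct 1, 2 and 3 and classical monocyte-like cells 637 CPM in the baseline library and 1043, 1430.1 and 906 CPM in infarct 1, 2 and 3. Reparative macrophage-like cells held 423 CPM in the baseline library and 243, 248 and 242 CPM in infarct 1, 2 and 3. Resident macrophage-like cells had the lowest mean, with 149.9 CPM in the baseline library and 238, 147 and 177 CPM in infarct 1, 2 and 3. The log2 fold change was 2.40 ± 0.16 (adjusted p = 1.43e-45) in granulocyte-like cells, 2.10 ± 0.07 (adjusted p = 1.18e-10) in type 2 dendritic-like cells and -1.20 ± 0.13 (adjusted p = 2.6e-10) in resident macrophage-like cells. A S100a11 UMI was found in 92.1% of thinned granulocyte-like cells at baseline and in 97.7, 97.5 and 94.1% in infarct 1, 2 and 3, against 34.9% of B-cell-like and 38.0% of endothelial-like cells at baseline and 35.0 and 42.4% of B-cell-like cells in infarct 1 and 3.

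S100a1, the member best known from cardiomyocytes, had a different order. It was highest in macrophage-like classes, and its infarct mean was 130.2 ± 19.7 CPM (SD, n = 3) in Saa3 Arg1 macrophage-like cells. Reparative macrophage-like cells held 79.4 CPM in the baseline library and 112, 113 and 113 CPM in infarct 1, 2 and 3, a narrow range. Resident macrophage-like cells held 91.9 CPM in the baseline library and 105, 107 and 155 CPM in infarct 1, 2 and 3. Classical monocyte-like cells held 46.0 CPM in the baseline library and 60.0, 61.4 and 62.1 CPM in infarct 1, 2 and 3, non-classical monocyte-like cells 20.7 CPM at baseline and 42.9, 46.0 and 39.9 CPM in the infarct libraries and type 2 dendritic-like cells 38.5 CPM at baseline and 29.7, 30.6 and 32.7 CPM in the infarct libraries. In the gated infarct sums the 5 highest classes overlapped each with the next, and type 2 dendritic-like cells lay below every other tested class. With classes from clustering, type 2 dendritic-like cells held 47.1, 48.0 and 48.7 CPM in infarct 1, 2 and 3. Non-classical monocyte-like cells lay below them there, at 24.7, 35.5 and 36.1 CPM. The log2 fold change was 0.36 ± 0.04 (adjusted p = 0.000851) in reparative macrophage-like cells, -0.70 ± 0.07 (adjusted p = 0.000236) in classical monocyte-like cells and -1.72 ± 0.09 (adjusted p = 1.14e-08) in type 2 dendritic-like cells. At baseline, endothelial-like cells stood above all other classes at 121 CPM, and B-cell-like cells held 1 UMI.

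Cardiomyocyte marker genes were also detected. The 9 markers summed to 82.4 CPM over all cells at baseline and to 31.6, 45.4 and 63.0 CPM in infarct 1, 2 and 3, so they were lower than baseline in each infarct library. In reparative macrophage-like cells they summed to 41.8 CPM at baseline and 32.3, 41.4 and 62.8 CPM in the infarct libraries. Reparative macrophage-like infarct cells without any cardiomyocyte UMI held 113, 115 and 114 CPM of S100a1, and those with at least 1 held 107, 104 and 108 CPM. At baseline the order was the other way in this class, with 77.4 CPM in cells without and 84.7 CPM in cells with such a UMI, and over all baseline cells the values were 65.7 and 82.5 CPM. The cluster led by Tnnt2, Des and Xirp2 held 46 baseline cells and 227, 363 and 458 cells of infarct 1, 2 and 3. The part of cardiomyocyte RNA in the S100a1 levels, at baseline or after infarction, was not tested.

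**Figure D3:**
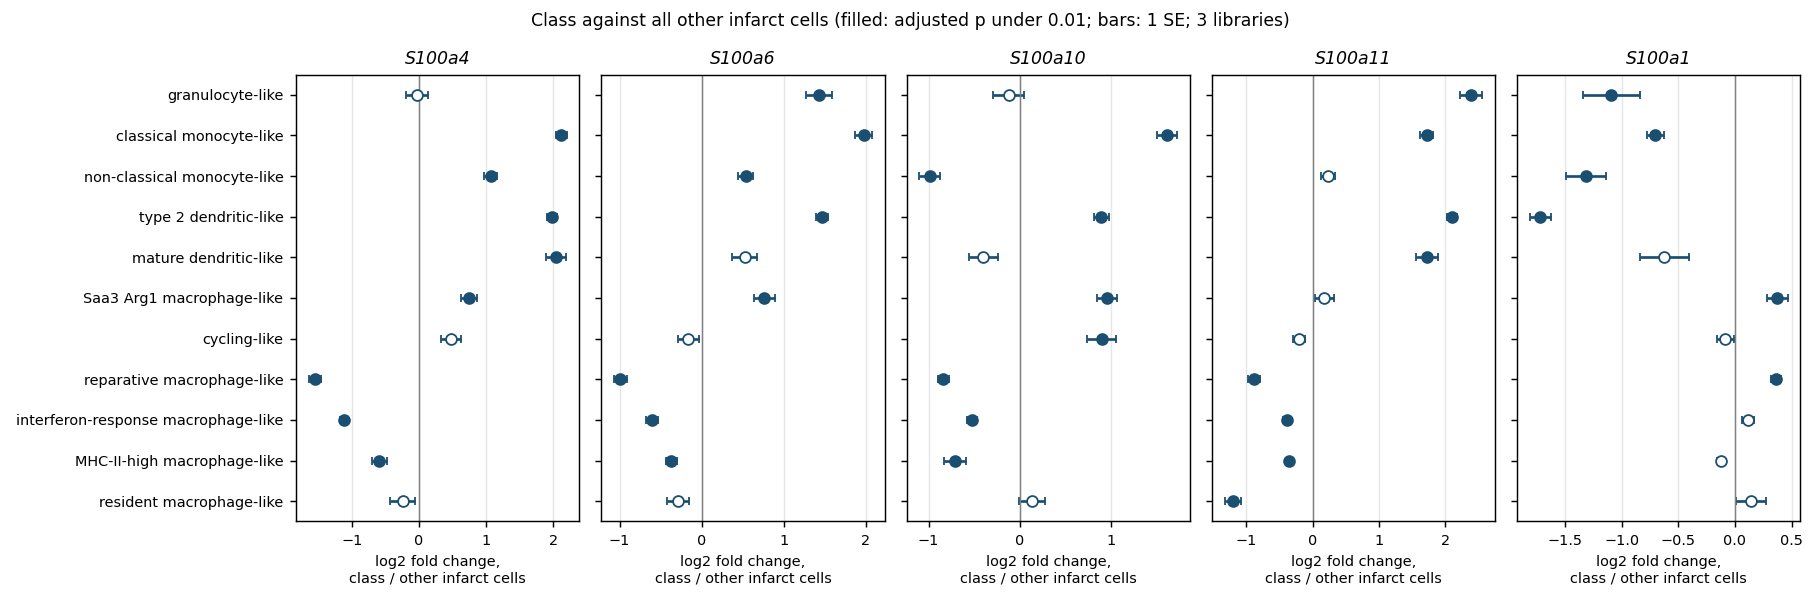
Log2 fold change of 5 S100 genes in each class against all other infarct cells of the same 3 hearts, with bars of 1 SE (filled: adjusted p under 0.01; open: not called). S100a4, S100a6, S100a10 and S100a11 lie to the right in classical monocyte-like and type 2 dendritic-like cells and to the left in reparative macrophage-like cells, and S100a1 shows the reverse.

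Read by class, granulocyte-like and classical monocyte-like cells both had higher S100a6 and S100a11 and lower S100a1 than the other infarct cells. In granulocyte-like cells 5 of 7 members were called in either direction, against 12.7% of all genes tested. S100a6, S100a8, S100a9 and S100a11 were higher and S100a1 was lower (-1.09 ± 0.25, adjusted p = 0.000181), though the S100a1 call was lost without infarct 3 (-0.80, adjusted p = 0.0782), after thinning (-1.07, adjusted p = 0.0177) and by DESeq2 (-1.06, adjusted p = 0.0228). The log2 fold changes of S100a8 and S100a9 were 9.60 ± 0.24 and 10.01 ± 0.25 (SE, n = 3). Classical monocyte-like cells also had 5 members called in either direction, against 26.7% of genes. There S100a4, S100a6, S100a10 and S100a11 were higher and S100a1 was lower, and the median over the members was 1.61, beside -0.08 over all genes. In non-classical monocyte-like cells 6 members were called in either direction, against 21.0% of genes. S100a4 was higher (1.07 ± 0.10, adjusted p = 1.2e-26), as was S100a6 (0.54 ± 0.10, adjusted p = 2.2e-07), and S100a1, S100a8, S100a9 and S100a10 were lower. The S100a6 call in these cells was lost under a stricter gate (0.24, adjusted p = 0.0817), after thinning (0.29, adjusted p = 0.0170) and with classes from clustering (0.05, adjusted p = 0.740).

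Direct comparison of granulocyte-like with classical monocyte-like cells called 5 members in either direction, against 7.47% of genes. S100a8 was higher by 8.16 ± 0.60 (adjusted p = 8.16e-07), S100a9 by 10.08 ± 0.89 (adjusted p = 4.89e-06) and S100a11 by 1.01 ± 0.16 (adjusted p = 0.000609) on the log2 scale. S100a4 was lower (-1.72 ± 0.21, adjusted p = 6.93e-05), as was S100a10 (-1.38 ± 0.22, adjusted p = 0.000911). Without infarct 2 only S100a8 and S100a9 remained called.

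Among macrophage-like classes, gated reparative cells had the lowest infarct means of S100a4 and S100a6, and both ranges overlapped those of interferon-response cells. All 7 were called in reparative macrophage-like cells in either direction, against 26.4% of genes, with S100a1 higher and the other 6 lower. The median over the members was -0.99, beside -0.01 over all genes. S100a10 (-0.84 ± 0.06, adjusted p = 7.42e-05) and S100a11 (-0.89 ± 0.08, adjusted p = 0.000269) were lower as well. The reparative calls depended on how the class was drawn. With classes from clustering, 3 members were called, S100a4 was -0.01 (adjusted p = 0.981), S100a11 was -0.13 (adjusted p = 0.358), and S100a6 (0.23, adjusted p = 0.232) and S100a10 (0.32, adjusted p = 0.0875) turned to the other side. By clustering the reparative levels were no longer the lowest. S100a4 then measured 409, 611 and 433 CPM in infarct 1, 2 and 3, against 168, 138 and 155 CPM in MHC-II-high cells. S100a6 measured 819, 809 and 974 CPM, against 404, 323 and 393 CPM in MHC-II-high cells. Of the 10579 gated reparative infarct cells, 4347 were reparative macrophage-like by clustering and 4773 fell in clusters without a name.

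The clusters named reparative macrophage-like differed widely among themselves. In the cluster led by Ctsk, Gpnmb and Spp1, with a median of 13329 UMIs per cell, S100a4 measured 707, 1339.9 and 788 CPM in infarct 1, 2 and 3. It measured 134, 128 and 169 CPM in the cluster led by Syngr1, Gpnmb and Ctsd and 100.1, 67.4 and 100.0 CPM in that led by Ctsd, Ccl8 and Gpnmb, with medians of 9953 and 8771 UMIs. S100a6 measured 1336, 1563 and 1648 CPM in the first, 344, 341 and 484 in the second and 285, 204 and 329 in the last. S100a10 measured 696, 1016 and 783, then 241, 234 and 269, then 215, 199.6 and 218 CPM. S100a1 varied far less, with 105, 117 and 124 CPM in the first cluster and 127, 136 and 128 in the second. No range of S100a4, S100a6 or S100a10 in the Ctsk cluster overlapped that of the others. S100 genes took no part in the clustering, and the difference was not tested.

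Resident macrophage-like infarct cells had 3 members called in either direction, against 7.81% of genes, namely S100a8, S100a9 and S100a11, all lower. The gated sums differed between hearts, since S100a4 measured 616, 169 and 823 CPM in infarct 1, 2 and 3 and S100a6 884, 351 and 1157 CPM in infarct 1, 2 and 3, from 76 to 86 cells each. Of these 241 cells, clustering named 57 resident, 60 Saa3 Arg1 and 25 classical monocyte-like. With classes from clustering S100a4 measured 109 and 159 CPM in infarct 2 and 3, from 43 and 20 cells. S100a6 measured 304 and 248 CPM there. Without infarct 3, which had the highest gated S100a4, S100a6 and S100a10 levels, 5 members were called. Directly compared, reparative and resident macrophage-like cells differed in 2 members in either direction, against 7.34% of genes. S100a11 was higher in reparative cells (0.57 ± 0.14, adjusted p = 0.00779) and S100a10 lower (-0.71 ± 0.18, adjusted p = 0.00944). Neither was called without infarct 3, with doublets removed, by DESeq2 or after thinning (adjusted p = 0.0118 for S100a10 and 0.0173 for S100a11). After thinning S100a4, lower in reparative cells, was called in their place, and under the stricter gate S100a11 was not called (adjusted p = 0.0555). S100a10 was also not called without infarct 1, nor S100a11 without infarct 2.

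MHC-II-high macrophage-like cells had 6 members called in either direction, against 20.2% of genes, all lower. S100a10 (-0.71 ± 0.12, adjusted p = 0.00142), S100a4 (-0.59 ± 0.11, adjusted p = 0.0021), S100a6 (-0.37 ± 0.07, adjusted p = 0.00234) and S100a11 (-0.36 ± 0.04, adjusted p = 6.13e-05) were among them. Without infarct 2, or without infarct 3, 3 members were called, and S100a4, S100a6 and S100a10 no longer were, nor were they by DESeq2. Interferon-response macrophage-like cells likewise had 6 called in either direction, against 12.6% of genes, again all lower. S100a4 (-1.11 ± 0.06, adjusted p = 1.13e-09) was among them, and S100a1 was not. The S100a6 call was lost by DESeq2 (-0.61, adjusted p = 0.0135) and with classes from clustering (-0.44, adjusted p = 0.0139), where S100a11 was lost too (-0.28, adjusted p = 0.0235).

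Saa3 Arg1 macrophage-like cells had higher levels of 4 members. In these cells 6 members were called in either direction, against 23.5% of genes. S100a10, S100a6 (0.76 ± 0.13, adjusted p = 0.000106), S100a4 (0.74 ± 0.12, adjusted p = 9.88e-05) and S100a1 (0.37 ± 0.09, adjusted p = 0.00315) were higher, and S100a8 and S100a9 were lower. The S100a1 call was lost without infarct 3 (0.26, adjusted p = 0.145), after thinning (0.24, adjusted p = 0.1004) and by DESeq2 (0.36, adjusted p = 0.0113). Against reparative macrophage-like cells, 6 members were called in either direction, beside 24.9% of genes, and each had a positive fold change. S100a4 was higher by 1.81 ± 0.11 (adjusted p = 1.62e-07), S100a10 by 1.44 ± 0.12 (adjusted p = 1.57e-06) and S100a6 by 1.39 ± 0.14 (adjusted p = 7.73e-06) on the log2 scale. The S100a8 and S100a9 fold changes were 2.11 ± 0.24 and 2.11 ± 0.40, but hearts differed for S100a9, which measured 28.1, 1.93 and 22.4 CPM in Saa3 Arg1 cells and 6.74, 6.62 and 2.03 CPM in reparative cells of infarct 1, 2 and 3, so that infarct 2 had the opposite order. Of the 473 S100a9 UMIs in 2118 Saa3 Arg1 cells, all but 42 lay in 5 cells. The S100a9 call was lost with doublets removed (adjusted p = 0.0344) and with classes from clustering (adjusted p = 0.127). S100a11 differed by 0.78 ± 0.17 (adjusted p = 0.00339), and with classes from clustering by -0.13 (adjusted p = 0.421), where the S100a6 call was lost too (0.47, adjusted p = 0.0173). By DESeq2 the calls of S100a9 (adjusted p = 0.423) and S100a11 (adjusted p = 0.0915) were lost.

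Cycling-like cells had 3 members called in either direction, against 23.6% of genes, with S100a10 higher (0.90 ± 0.16, adjusted p = 0.00291) and S100a8 and S100a9 lower. S100a10 was not called without infarct 2 (0.78, adjusted p = 0.0141) or without infarct 3 (0.72, adjusted p = 0.0192) or by DESeq2 (0.90, adjusted p = 0.0399), and S100a8 and S100a9 were not with classes from clustering (adjusted p = 0.463 and 0.117).

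The lower calls of S100a8 and S100a9 outside granulocyte-like cells rest on a comparator that holds the granulocyte-like cells. With these left out of the comparator, a setting chosen after the data were seen, S100a8 in Saa3 Arg1 macrophage-like cells measured 0.17 (adjusted p = 0.362) and S100a9 -0.14 (adjusted p = 0.664). In MHC-II-high macrophage-like cells neither was called any longer (S100a8 adjusted p = 0.0108, S100a9 adjusted p = 0.0626), and S100a9 was not called in cycling-like cells (adjusted p = 0.0241). The lower calls in non-classical monocyte-like, reparative, resident, interferon-response, type 2 dendritic-like and mature dendritic-like cells were kept.

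In dendritic-like cells S100a4 and S100a11 were higher throughout and S100a8 and S100a9 lower. All 7 members were called in type 2 dendritic-like cells in either direction, against 35.3% of genes. S100a4, S100a6, S100a10 (0.89 ± 0.08, adjusted p = 2e-06) and S100a11 were higher and S100a1, S100a8 and S100a9 were lower. Mature dendritic-like cells had 4 members called in either direction, against 17.8% of genes, with S100a4 and S100a11 (1.72 ± 0.16, adjusted p = 6.18e-09) higher and S100a8 and S100a9 lower. Type 2 dendritic-like cells differed from classical monocyte-like cells in 5 of the 6 members tested in either direction, against 31.0% of genes. S100a11 was higher (0.47 ± 0.06, adjusted p = 0.000135), and S100a1 (-0.97 ± 0.11, adjusted p = 4.96e-05), S100a10 (-0.56 ± 0.07, adjusted p = 0.000113), S100a6 (-0.33 ± 0.06, adjusted p = 0.00115) and S100a8 were lower. S100a9 had too few counts to be tested, and without infarct 2 S100a6 was not called (-0.34, adjusted p = 0.0336), nor was it with classes from clustering (-0.15, adjusted p = 0.0178).

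Classical monocyte-like cells were also compared directly with reparative macrophage-like cells, the class with the most infarct cells. Of the members, 6 were called in either direction, against 34.3% of genes, and the median over the members was 2.47, beside -0.03 over all genes. S100a4 was 8.20-fold higher in monocyte-like cells (3.03 ± 0.08, adjusted p = 4.69e-07). S100a6 differed by 2.47 ± 0.10 (adjusted p = 2.54e-06), S100a11 by 2.18 ± 0.12 (adjusted p = 1.18e-05) and S100a10 by 2.05 ± 0.13 (adjusted p = 1.78e-05). S100a8 was also higher (3.68 ± 0.54, adjusted p = 0.00109), with the uneven monocyte levels given above. S100a1 was lower in monocyte-like cells (-0.88 ± 0.07, adjusted p = 5.74e-05). Each of these 6 calls was kept when any 1 heart was left out, but with classes from clustering S100a8 was not called (2.71, adjusted p = 0.0202). Of the 1451 S100a8 UMIs in the 1759 infarct classical monocyte-like cells, all but 98 lay in 13 cells.

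Next, the infarct libraries were set against the baseline library. With 1 baseline library there is no test, and values are given with the spread of the infarct hearts only. Over all cells S100a1 measured 70.6 CPM in the baseline library and 95.9, 101 and 106 CPM in infarct 1, 2 and 3, above baseline in 3 of 3. S100a11 measured 303 CPM in the baseline library and 430.4, 411 and 329 CPM in infarct 1, 2 and 3, also above in 3 of 3. S100a4 (564 CPM at baseline and 654, 493 and 414 CPM in the infarct libraries), S100a6 (821 CPM at baseline and 993, 694 and 769 CPM in the infarct libraries), S100a8 (60.2 CPM at baseline and 80.6, 57.3 and 77.1 CPM in the infarct libraries), S100a9 (106 CPM at baseline and 111, 85.3 and 98.6 CPM in the infarct libraries) and S100a10 (512 CPM at baseline and 521, 423 and 398 CPM in the infarct libraries) fell on both sides of baseline. Thus 2 of 7 members had all infarct libraries on the same side in either direction, beside 86.4% of the genes with at least 10 CPM. None was at least 2-fold away in all 3 in either direction, beside 5.01% of genes. The median gene lay at -0.17 on the log2 scale, and under TMM scaling it lay at 0.12, and ratios are to be read against these shifts. Under TMM scaling S100a6, S100a8 and S100a9 also lay above baseline in all 3 infarct libraries.

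Gated reparative macrophage-like cells had lower S100a4, S100a6 and S100a10 levels in the infarct libraries than the few such cells at baseline, but the class was made up differently in each group. All 3 genes were at least 2-fold lower in each infarct library, so 3 of 7 members met this limit in either direction, beside 4.26% of genes. Their mean log2 ratios were -1.59 ± 0.07, -1.24 ± 0.20 and -1.18 ± 0.11 (SD, n = 3). S100a11 lay at -0.79 ± 0.02 and S100a1 at 0.50 ± 0.01. All 7 members lay on the same side in every infarct library, in either direction, beside 86.6% of genes. S100a1 and S100a9 were above baseline and the others below. S100a9 had 3 UMIs at baseline, and its lowest infarct value, 2.03 CPM, lay within the exact baseline interval of 0.328 to 4.64 CPM. Of the 541 S100a9 UMIs in reparative infarct cells, all but 114 lay in 10 cells. The other 10569 infarct cells held those 114, against 3 in 126 baseline cells. The S100a8 infarct range, 3.61 to 7.23 CPM, overlapped its baseline interval of 4.05 to 12.4 CPM. The sides of S100a8 and S100a9 were thus not settled. The 126 baseline cells of this class were deep, with a median of 14895 UMIs against 9482 to 9848 in the infarct libraries. Of the 186 baseline cells named reparative by clustering, 173 lay in the Ctsk cluster, against 679 of 1667, 699 of 2235 and 667 of 1815 in infarct 1, 2 and 3. Within that cluster S100a4 measured 957 CPM at baseline and 707, 1339.9 and 788 CPM in the infarct libraries, S100a6 1598 and 1336, 1563 and 1648 CPM, and S100a10 992 and 696, 1016 and 783 CPM. None of the 3 genes was 2-fold lower there in any infarct library, and each lay above baseline in 1 of 3. Under TMM scaling, or with a stricter gate, 1 member met the 2-fold limit instead of 3.

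In classical monocyte-like cells 6 of 7 members lay on the same side of baseline in all 3 infarct libraries in either direction, beside 75.5% of genes, and these were all above. S100a11 had a log2 ratio of 0.82 ± 0.34, S100a10 of 0.58 ± 0.31, S100a1 of 0.41 ± 0.03 and S100a6 of 0.23 ± 0.02 (SD, n = 3), and S100a8 and S100a9 were above as well. For S100a9 the infarct 2 value, 1.54 CPM, lay within the exact baseline interval of 0.436 to 2.23 CPM. Cells with fewer than 10 UMIs of the pair held 45 S100a8 UMIs in 797 baseline cells. In infarct 1, 2 and 3 such cells held 43 in 819, 33 in 566 and 22 in 361 cells. S100a4 lay on both sides. Classical monocyte-like cells also came from different clusters in each group. The cluster led by Chil3, Ly6c2 and Hp held 784 of the 1012 baseline cells named classical monocyte-like but 113 of 1944 in infarct 1, where that led by Vcan, Dmkn and Cxcl3 held 1353. With classes from clustering S100a6 was not above baseline (2208 CPM there and 2207, 2183 and 2091 CPM in infarct 1, 2 and 3), and S100a4 lay below it in all 3 (1635 against 1571, 1568 and 1274 CPM). No member was at least 2-fold away in all 3 in either direction, beside 3.20% of genes. Without infarct 2, S100a8 and S100a9 both met the limit. In type 2 dendritic-like cells 5 members lay on the same side in either direction, beside 77.0% of genes. S100a11 (0.90 ± 0.25), S100a4 (0.57 ± 0.25) and S100a6 (0.30 ± 0.07) were above and S100a10 and S100a1 below, and none was 2-fold away in all 3 in either direction, beside 4.88% of genes. The S100a1 direction was not stable, since its log2 ratio was 0.37 under the stricter gate. With classes from clustering S100a1 lay above baseline, at 39.4 CPM there and 47.1, 48.0 and 48.7 CPM in infarct 1, 2 and 3. Without infarct 3, S100a8 met the limit on 0.304 and 0.485 CPM in the other hearts, levels of 1 UMI each, which is under the floor of 3 counts.

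In granulocyte-like cells S100a8 lay at 0.09 ± 0.08 and S100a9 at -0.20 ± 0.19 (log2 ratio, SD, n = 3). In all, 6 members were on the same side in either direction, beside 67.0% of genes, with S100a1, S100a8 and S100a10 above and S100a6, S100a9 and S100a11 below. Only S100a1 was at least 2-fold away in all 3, beside 19.9% of genes in either direction, from 3 UMIs at baseline. The S100a8 and S100a9 directions were not stable, since S100a8 measured -0.016 after thinning and S100a9 0.0095 under a stricter gate. With classes from clustering, granulocyte-like S100a10 lay below baseline in all 3 (159 against 55.3, 52.7 and 121 CPM). S100a4 did so too (154 against 138, 42.2 and 133 CPM), and S100a8, S100a9 and S100a11 fell on both sides. S100a1 stayed above baseline there and S100a6 below. Resident macrophage-like cells had 2 members on the same side in either direction, beside 55.2% of genes, S100a1 above and S100a9 below. The S100a9 value was at least 2-fold lower in all 3, beside 1.88% of genes in either direction, but rested on 0 to 1 UMI per infarct library and was not detectable at this depth. Without infarct 2, S100a4, S100a6 and S100a9 met the limit by the gate. With classes from clustering, resident S100a4 lay below baseline in infarct 2 and 3 (223 against 109 and 159 CPM). MHC-II-high macrophage-like cells had 2 members on the same side in either direction, beside 83.1% of genes, S100a11 (0.57 ± 0.29) and S100a1 (0.31 ± 0.03), both above by the gate. With classes from clustering, which named only 41 baseline cells MHC-II-high against 2442 by the gate, S100a11 lay below baseline instead, at 260 CPM there and 219, 216 and 203 CPM in infarct 1, 2 and 3. None was 2-fold away in all 3 in either direction, beside 4.12% of genes, and without infarct 3, S100a8 and S100a9 were.

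**Figure D4:**
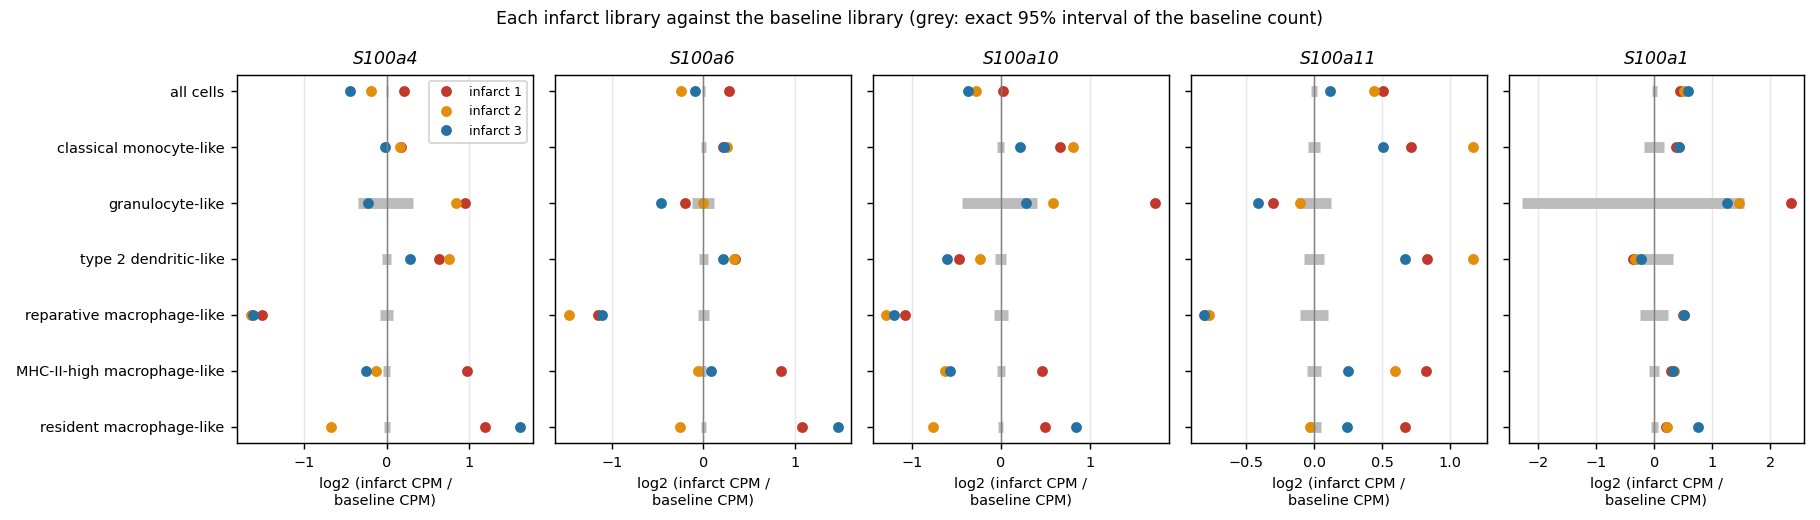
Log2 ratio of CPM in each infarct library (colored points) to the baseline library for 5 S100 genes, over all cells and in 6 classes, with the exact 95% interval of the baseline count in grey. In reparative macrophage-like cells S100a4, S100a6 and S100a10 lie at -1.59, -1.24 and -1.18 on average, a class whose cells come from different clusters in each group and in whose Ctsk cluster none was 2-fold lower. In classical monocyte-like cells S100a11 lies at 0.82.

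Binding partners and receptors were followed through a list of 11 genes. In classical monocyte-like cells, which had the highest infarct means of S100a6 and S100a10, 5 of 11 were called, against 26.7% of genes, and all 5 were higher. Among them were Anxa2 (1.62 ± 0.07, adjusted p = 7.53e-06), the membrane partner of S100a10, Ahnak (1.26 ± 0.07, adjusted p = 1.7e-05), a scaffold that binds the S100a10 and Anxa2 complex, and Cacybp (0.33 ± 0.07, adjusted p = 0.00716), which binds S100a6. In granulocyte-like cells 4 of 11 were called, against 12.7% of genes. Anxa1, the partner of S100a11, was higher (0.99 ± 0.16, adjusted p = 4.7e-08), as were Anxa2 and Anxa11, whereas Ly96, the co-receptor of Tlr4, was lower (-1.23 ± 0.32, adjusted p = 0.00111). In mature dendritic-like cells 5 of 11 were called, against 17.8% of genes, with Anxa2 and Myh9 higher, the latter a myosin heavy chain bound by S100a4 (0.86 ± 0.17, adjusted p = 0.000255), and Ahnak, Anxa1 and Tlr4 lower. Saa3 Arg1 macrophage-like cells had 6 of 11 called, against 23.5% of genes, all higher, among them Tlr4 (0.90 ± 0.09, adjusted p = 2.85e-07) and Bsg (0.38 ± 0.09, adjusted p = 0.00214), both receptors for S100a8 or S100a9. Type 2 dendritic-like cells had 8 of 11 called, against 35.3% of genes, 5 higher and 3 lower, with Tlr4 (-2.30 ± 0.18, adjusted p = 4.1e-07) and Ly96 (-2.54 ± 0.13, adjusted p = 6.44e-09) among the lower ones. In the remaining classes the counts were 4 of 11 in reparative (beside 26.4% of genes) and MHC-II-high macrophage-like cells (beside 20.2%), and 3 of 11 in non-classical monocyte-like (21.0%), resident (7.81%), interferon-response (12.6%) and cycling-like cells (23.6%), several of them near the share of all genes. In reparative macrophage-like cells Ahnak, Anxa2 and Cacybp were lower and Ly96 was higher, and in MHC-II-high macrophage-like cells Ahnak, Anxa1, Anxa2 and Bsg were lower. Partner and receptor calls are given for the gated classes with edgeR only, and whether they hold under the alternatives was not examined.

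Levels of the members were related to each other over the 46 sums of a class in a library with at least 20 cells. The sums share libraries, so the Pearson r values of log2(CPM + 10) are descriptions. S100a8 and S100a9 had an r of 0.99, S100a6 and S100a11 of 0.84 and S100a4 and S100a6 of 0.76. S100a1 and S100a11 had an r of -0.48. The genes most like S100a6 were Anxa2 (r = 0.88), Mcemp1 (0.88) and Prdx6 (0.85). Those most like S100a11 were Mcemp1 (0.89), Cox17 (0.86) and Csf2rb (0.85). S100a4 was closest to Psma7 (0.85), Rbm3 (0.85) and Tmsb10 (0.84), S100a10 to Psmd6 (0.75), Nme1 (0.73) and Eif3b (0.72), and S100a1 to Bsg (0.82), Dhrs3 (0.81) and 2610001J05Rik (0.81). S100a8 and S100a9 were closest to Lcn2 (0.96 with S100a8), Hdc, Cxcr2 and Retnlg, all of which are markers used for the granulocyte-like gate.

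Of 10 other S100 family genes on the list, only S100a13 reached 10 CPM over all cells, with 161 CPM at baseline and 183, 175 and 182 CPM in infarct 1, 2 and 3. It starts 42 bases from S100a1 without overlapping it. S100a13 was higher in Saa3 Arg1 macrophage-like cells (0.56 ± 0.08, adjusted p = 2.38e-05) and classical monocyte-like cells (0.45 ± 0.07, adjusted p = 0.00136) and lower in granulocyte-like (-0.64 ± 0.20, adjusted p = 0.00951) and type 2 dendritic-like cells (-0.35 ± 0.07, adjusted p = 0.00176). Unlike S100a1, it was thus higher in classical monocyte-like cells.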

How the data were processed

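Single-cell 3′ RNA-seq of EGFP+ Ly6G- heart cells gave 4 libraries. The deposited files hold UMI counts per gene and cell that the authors made with Cell Ranger (3.1.0 per the file headers, 3.0.1 per the submitters' processing notes) on mm10, with no further normalization. The study's own cell filter was applied (500 to 40000 UMIs, more than 200 genes). Cells were assigned to 14 classes by marker counts (3 to 5 markers required), with macrophage-like classes split at 20 C1q UMIs and at 200 MHC-II UMIs in 10000. Counts were summed per class and library without mitochondrial genes and scaled to CPM. Infarct classes with at least 20 cells in every infarct library were tested with edgeR 4.0.16 (R 4.3.3): TMM scaling, filterByExpr, quasi-likelihood F test, Benjamini-Hochberg adjustment over all genes tested and a threshold of 0.01. The heart was a block, because each comparison sets sums of 1 heart against each other. Each comparison with baseline is without a test, and a member counted as away from baseline when at least 2-fold higher or lower in all 3 infarct libraries. Genes most like a member were ranked by Pearson r of log2(CPM + 10) among genes averaging 50 CPM or more. Intervals are exact (binomial or Poisson, 95%, scipy 1.17.1), and a count of 0 allows up to 3 counts.

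Alternatives were DESeq2 1.42.0 (size factors and Wald test), dropping the low-count filter, dropping the block, leaving out each infarct library, thinning to 2000 or 1000 UMIs, removal of doublets (Scrublet scores, 8.10 to 8.63% of cells per library, since its automatic threshold marked 0 to 2.22%), a stricter gate, at least 1000 UMIs per cell, TMM scaling or the mean of each cell's CPM for the comparison with baseline, and Leiden clustering without S100 genes (scanpy 1.11.5, leidenalg 0.10.2, 31 clusters). Doublets were kept in the values reported. Tests were tried on simulated counts first. For classical monocyte-like against all other infarct cells, 67% of 2-fold and 84.8% of 4-fold changes were recovered. For granulocyte-like cells the values were 11.4 and 43%, so a member not called there may still differ. Genes named are the 7 members, listed partners and receptors that passed the test, other S100 genes of at least 10 CPM, and the 3 genes most like each member. The members and lists were chosen with earlier results of these data known, and the gate limits were set after marker and S100 levels had been seen.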

Additional observations from a re-analysis of the deposited data

How the results depend on the processing

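Over 1559 recomputed values for 141 results, 1390 kept their direction and side of the threshold or moved by less than the limit set, 75 lost a call, 87 moved and 7 changed sign. The cause of these changes was not tested. With classes from clustering, 3 members were called in reparative macrophage-like cells and 3 between Saa3 Arg1 and reparative cells, and signs changed for S100a6 (0.23) and S100a10 (0.32) in reparative cells and for S100a11 (-0.13) between Saa3 Arg1 and reparative cells. With granulocyte-like cells out of the comparator, an alternative chosen after seeing the data, S100a8 in Saa3 Arg1 cells was 0.17. By DESeq2, 3 members were called in MHC-II-high cells and 0 between reparative and resident cells. There, 1 was called after thinning, which was S100a4 and neither of those reported, 0 with doublets removed and 1, S100a10, under the stricter gate.

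Both sums of a heart were paired by a block in the tests. With no replicate block the calls fell to 0 in MHC-II-high cells, 2 in interferon-response cells, 3 between granulocyte-like and classical monocyte-like cells, 0 between reparative and resident cells and 2 between type 2 dendritic-like and classical monocyte-like cells. No paired analysis was possible because baseline has 1 library where infarct libraries were set against it.

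Leaving out 1 infarct library gave 3 to 5 calls in resident cells (5 without infarct 3), 3 to 6 in MHC-II-high cells (3 without infarct 2 or 3), 2 to 5 between granulocyte-like and classical monocyte-like cells (2 without infarct 2) and 0 to 3 between reparative and resident cells (0 without infarct 3). Members at least 2-fold from baseline numbered 0 to 2 in classical monocyte-like cells (2 without infarct 2), 1 to 3 in resident cells (3 without infarct 2), 0 to 2 in MHC-II-high cells (2 without infarct 3) and 0 to 1 in type 2 dendritic-like cells (1 without infarct 3).

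Against baseline, classical monocyte-like cells had 1 member past 2-fold under TMM scaling, 1 when CPM was averaged over cells and 1 under the stricter gate. Reparative cells had 1 under TMM scaling and 1 under the stricter gate, granulocyte-like cells 0 after thinning, and resident cells 0 after thinning, 0 with doublets removed and 0 under the stricter gate. Log2 ratios changed sign for S100a8 (-0.016, thinned) and S100a9 (0.0095, stricter gate) in granulocyte-like cells and for S100a1 (0.37, stricter gate) in type 2 dendritic-like cells. The granulocyte-like share of UMIs was 48.6% for S100a8 and 53.8% for S100a9 under the stricter gate, 76.0 and 81.9% with doublets removed and 78.9 and 87.1% with clustering. Thinned to 1000 UMIs, mean shares of cells were 9.48% for S100a1 in Saa3 Arg1 cells, 64.8% for S100a4 in mature dendritic-like cells, 87.1% for S100a6 and 55.8% for S100a10 in classical monocyte-like cells and 86.6% for S100a11 in granulocyte-like cells. Without thinning, S100a1, S100a6 and S100a10 reached 57.8, 99.1 and 92.5%. Type 1 dendritic-like, B-cell-like and endothelial-like cells were not tested, having under 20 cells in at least 1 infarct library.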
